A study of Mus musculus with 7 samples.

Results

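The genes whose symbol starts with Nduf encode the nuclear part of respiratory complex I and the factors that build it. All rows of the deposited expression table with such a symbol were taken, which gave 45 of the 24346 genes listed. By their known roles, 36 encode subunits of complex I, with 7 core and 29 accessory subunits, 7 are assembly factors named Ndufaf, and 2 (*Ndufa4* and *Ndufa4l2*) encode a complex IV subunit and its paralog that carry the name for historical reasons. Complex I (NADH:ubiquinone oxidoreductase) is the largest enzyme of the respiratory chain and the main entry point for electrons from NADH. Its matrix arm holds the N module, which oxidizes NADH, and the Q module, which passes the electrons to ubiquinone. Its membrane arm pumps protons and is made of mitochondrially encoded core subunits surrounded by accessory subunits. Neurons draw most of their ATP from oxidative phosphorylation, and creatine (Cr) with its kinases buffers that ATP.

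The expression table was made from the cerebral cortex of male mice at postnatal day 100 on a C57BL/6J background, with 1 mRNA-seq library for each animal, made from total RNA. The 4 CrT-/y animals (numbered 0 to 3) carry a germline deletion in *Slc6a8*, the X-linked gene of the Cr transporter, and the 3 CrT+/y animals (numbered 1 to 3) are wild-type males. The deletion is constitutive, and since whole cortex was sequenced the values do not separate cell types. Values are FPKM, fragments scaled to transcript length and to mapped reads. Genotypes were compared with limma on log2(FPKM + 0.1) among the 12988 genes averaging at least 1 FPKM, which included all 45 Nduf genes, and a gene was called at a Benjamini-Hochberg adjusted p under 0.1.

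*Slc6a8* itself was at 12.4, 14.9, 14.7 and 15.7 FPKM in CrT-/y replicates 0 to 3 and at 32.3, 29.6 and 28.0 FPKM in CrT+/y replicates 1 to 3, without overlap (a log2 difference of -1.05, limma adjusted p = 0.0024). Profiles of log2 values correlated between animals at Pearson's r = 0.986 to 0.990 within CrT-/y and 0.982 to 0.984 within CrT+/y. Read counts per library were not used here. Relative depth, estimated from weakly expressed genes and set to 1 for the average animal, lay between 0.891 and 1.23 in CrT-/y and between 0.855 and 1.06 in CrT+/y animals. All marker genes listed for cortical excitatory neurons (8), inhibitory neurons (6) and astrocytes (5) were above 1 FPKM in every animal.

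Complex I subunit genes were strongly expressed in the cortex. Their median level was 86.4 FPKM over the 7 animals, and 33 of the 36 lay between 50 and 200 FPKM. The highest subunit, *Ndufs5* at 191.1 FPKM, was 13.8-fold above the lowest, *Ndufa11* at 13.8 FPKM. The assembly factors, which act on the enzyme only while it is built, were far less abundant, between 5.25 FPKM for *Ndufaf6* and 24.7 FPKM for *Ndufaf2*. *Ndufa4*, now placed in complex IV, was the most abundant Nduf transcript at 442.0 FPKM, and its paralog *Ndufa4l2* the least abundant at 4.12 FPKM.

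Few Nduf genes differed between genotypes when all animals were used. With limma, 2 of the 45 were called higher in CrT-/y animals, *Ndufv3* and *Ndufa13*, where 2.90% of all genes tested were called higher. None was called lower, where 7.25% of all genes were. At an unadjusted p under 0.05, 10 Nduf genes were higher and 1 was lower, against 8.19% and 16.8% of all genes. The CrT-/y animals all lay above the CrT+/y animals in 2 Nduf genes (*Ndufa13* and *Ndufb4*) and all below them in 1 (*Ndufs1*), while such a separation was seen in 6.57% of all genes upwards and 15.0% downwards. The log2 fold change was positive in 32 of the 45 and its median was 0.077, whereas the median over all genes tested was -0.033 with 41.8% positive. In whole cortex, a change in the number of cells of a type and a change in RNA per cell cannot be told apart.

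**Figure D1:**
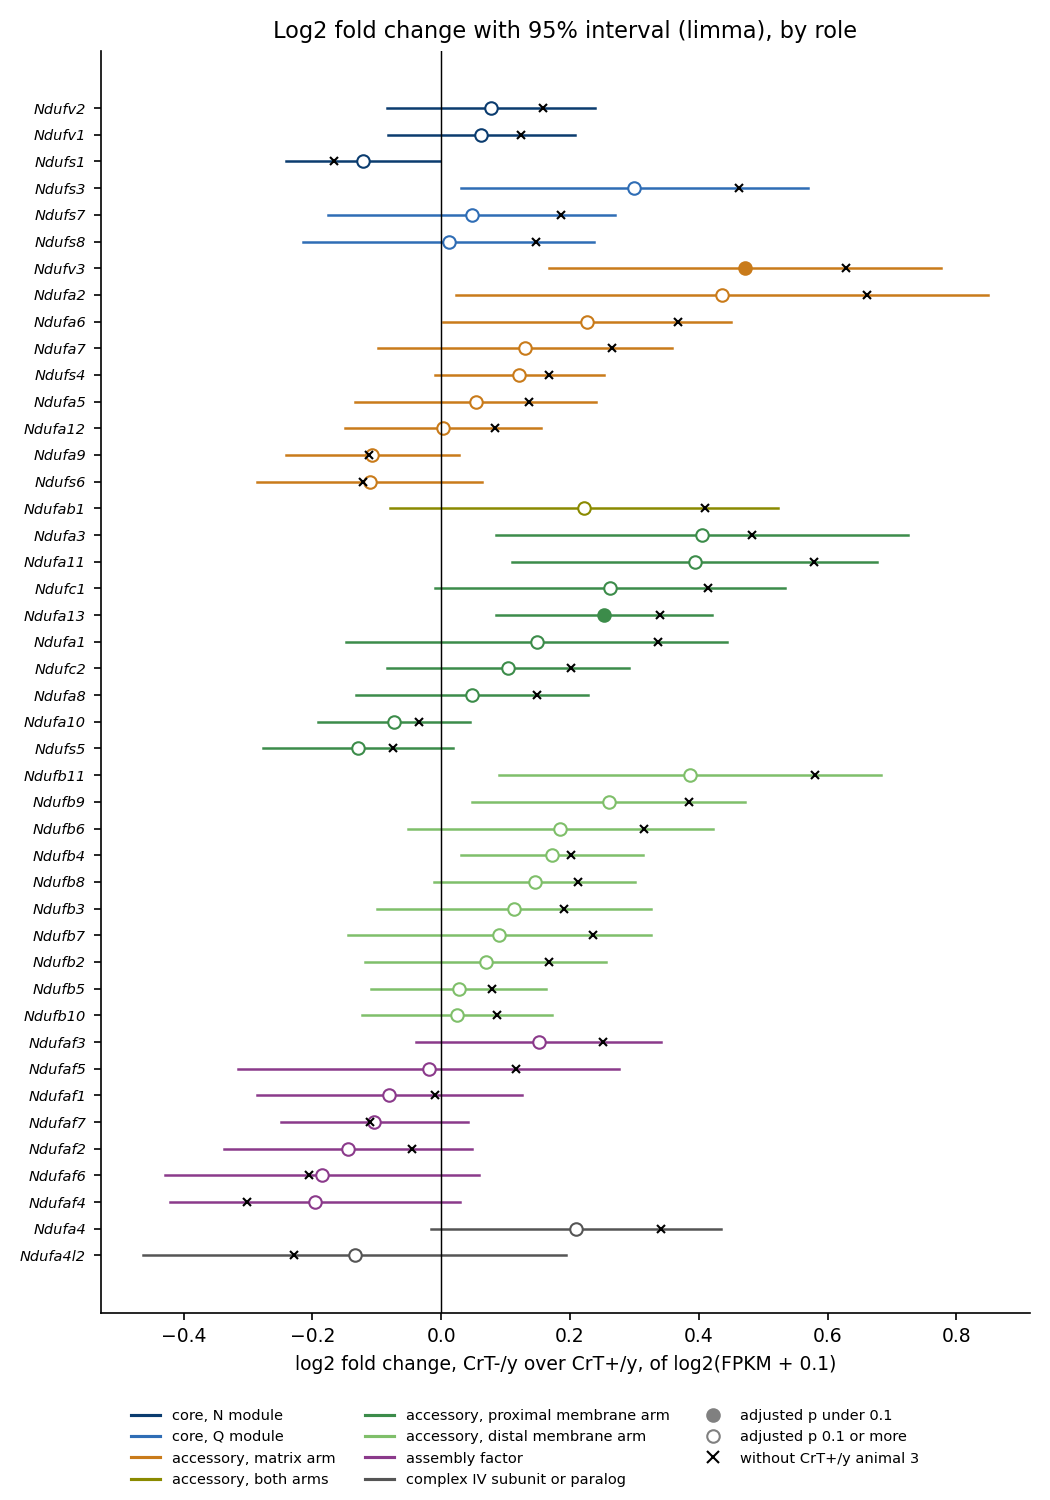
Log2 fold change of log2(FPKM + 0.1), CrT-/y over CrT+/y, for 44 of the 45 Nduf genes grouped by role, with the 95% confidence interval of limma (bars); filled points have an adjusted p under 0.1, and crosses give the log2 fold change without CrT+/y replicate 3. Only *Ndufv3* and *Ndufa13* are filled, the 10 subunits of the distal membrane arm all lie right of 0 (4 of them turn negative with the length correction), and 6 of the 7 assembly factors lie left of it.

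*Ndufv3* encodes an accessory subunit at the tip of the N module. It was at 103.4, 117.6, 94.4 and 126.8 FPKM in CrT-/y replicates 0 to 3 and at 73.7, 68.5 and 98.3 FPKM in CrT+/y replicates 1 to 3. CrT+/y replicate 3 exceeded CrT-/y replicate 2, so the groups overlapped by that pair alone. The mean was 110.5 ± 14.4 FPKM (SD, n = 4) against 80.1 ± 15.9 FPKM (SD, n = 3), a log2 fold change of 0.47 with a standard error of 0.14 (limma adjusted p = 0.083). *Ndufv3* (ENSMUSG00000024038.17) lies on the plus strand at chr17:31520115-31531331 of GRCm38. Because it had the largest change of the 45, the bases just before its start are shown. They hold no annotated exon and none of the 3 motifs searched, are 61.9% G and C, and come from RefSeq (GRCm38.p6, chr17:31519981-31520114, plus strand):
Ndufv3 start region: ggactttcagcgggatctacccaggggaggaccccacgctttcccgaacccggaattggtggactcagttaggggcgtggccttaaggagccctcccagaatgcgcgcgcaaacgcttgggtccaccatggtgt

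*Ndufa13*, also known as GRIM-19, encodes an accessory subunit of the proximal membrane arm that was first described as a cell death regulator. Its levels were 60.0, 60.9, 62.1 and 65.8 FPKM in CrT-/y against 50.3, 48.0 and 58.8 FPKM in CrT+/y cortex. Every CrT-/y animal was above every CrT+/y animal, and CrT+/y replicate 3 came closest to them. The rise was small, from 52.4 ± 5.73 FPKM (SD, n = 3) to 62.2 ± 2.55 FPKM (SD, n = 4), with a log2 fold change of 0.25 and a standard error of 0.075 (limma adjusted p = 0.090). *Ndufa13* (ENSMUSG00000036199.9) lies on the minus strand at chr8:69894180-69902558. Leaving out any one animal except CrT+/y replicate 3 ended both calls, with limma adjusted p of 0.12 to 0.22 for *Ndufv3* and 0.13 to 0.22 for *Ndufa13*. Most calls over all genes were lost as well, from 377 higher with all animals to between 11 and 244 in these fits. The log2 fold change stayed positive in each of these fits, at 0.37 to 0.55 for *Ndufv3* and 0.19 to 0.27 for *Ndufa13*.

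Several other accessory subunits had a larger log2 fold change than *Ndufa13* without passing the threshold. *Ndufa2*, an N module subunit with a thioredoxin fold, was at 57.5, 73.2, 71.9 and 70.9 FPKM in CrT-/y against 36.3, 50.8 and 68.9 FPKM in CrT+/y cortex (log2 fold change 0.44, limma adjusted p = 0.18). The CrT+/y animals differed from each other by more than the group means did. *Ndufa3*, a small membrane arm subunit, was at 176.9, 223.2, 195.3 and 226.0 FPKM against 119.6, 178.7 and 171.8 FPKM (0.41, limma adjusted p = 0.13), and only CrT+/y replicate 1 was clearly apart. *Ndufa11*, which sits where complex I meets other complexes in supercomplexes, was at 15.1, 15.3, 15.0 and 15.8 FPKM against 10.5, 9.90 and 15.0 FPKM (0.39, limma adjusted p = 0.105). Here the 4 CrT-/y animals and CrT+/y replicate 3 were almost the same, and the other CrT+/y animals were low. *Ndufb11*, an X-linked subunit of the distal membrane arm, had the same form, with 64.4, 61.3, 65.0 and 69.5 FPKM against 42.3, 44.6 and 65.0 FPKM (0.39, limma adjusted p = 0.12). The remaining large changes were in *Ndufc1* (0.26, limma adjusted p = 0.21), a small membrane subunit, and *Ndufb9* (0.26, limma adjusted p = 0.13), a subunit of the LYR family. In both, CrT+/y replicates 1 and 2 were below all CrT-/y animals while CrT+/y replicate 3 was among them. After the length correction given further on, the log2 fold change of *Ndufc1* was 0.052 and that of *Ndufb9* 0.16.

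*Ndufa11* is 1 of 3 Nduf genes with the core motif of NRF1, a regulator of many nuclear genes for mitochondrial proteins, in the 250 bases before the start. For that reason the exon-free stretch before it is shown, with the motif in capitals; its first base lies 59 bases before the start (RefSeq, GRCm38.p6, chr17:56717686-56717761, plus strand):
Ndufa11 start region: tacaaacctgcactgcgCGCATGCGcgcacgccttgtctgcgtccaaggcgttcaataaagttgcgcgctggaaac

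Start regions were matched for 39 of the 45 Nduf genes. Searched on both strands, CGCATGCG was in 7.69% of them (*Ndufa8*, *Ndufa11* and *Ndufaf4*) and in 3.51% of 9868 tested genes. The ETS core CCGGAAG was in 4 (*Ndufaf1*, *Ndufb6*, *Ndufb7* and *Ndufs3*), or 10.3% against 14.8% of tested genes, and the ERR site AAGGTCA in 3 (*Ndufb2*, *Ndufb4* and *Ndufs5*), or 7.69% against 3.43%. These are descriptions of letters in these windows, and the genes with a given motif did not share a direction: among the NRF1 core genes the log2 fold change was 0.39 in *Ndufa11*, 0.048 in *Ndufa8* and -0.20 in *Ndufaf4*.

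**Figure D2:**
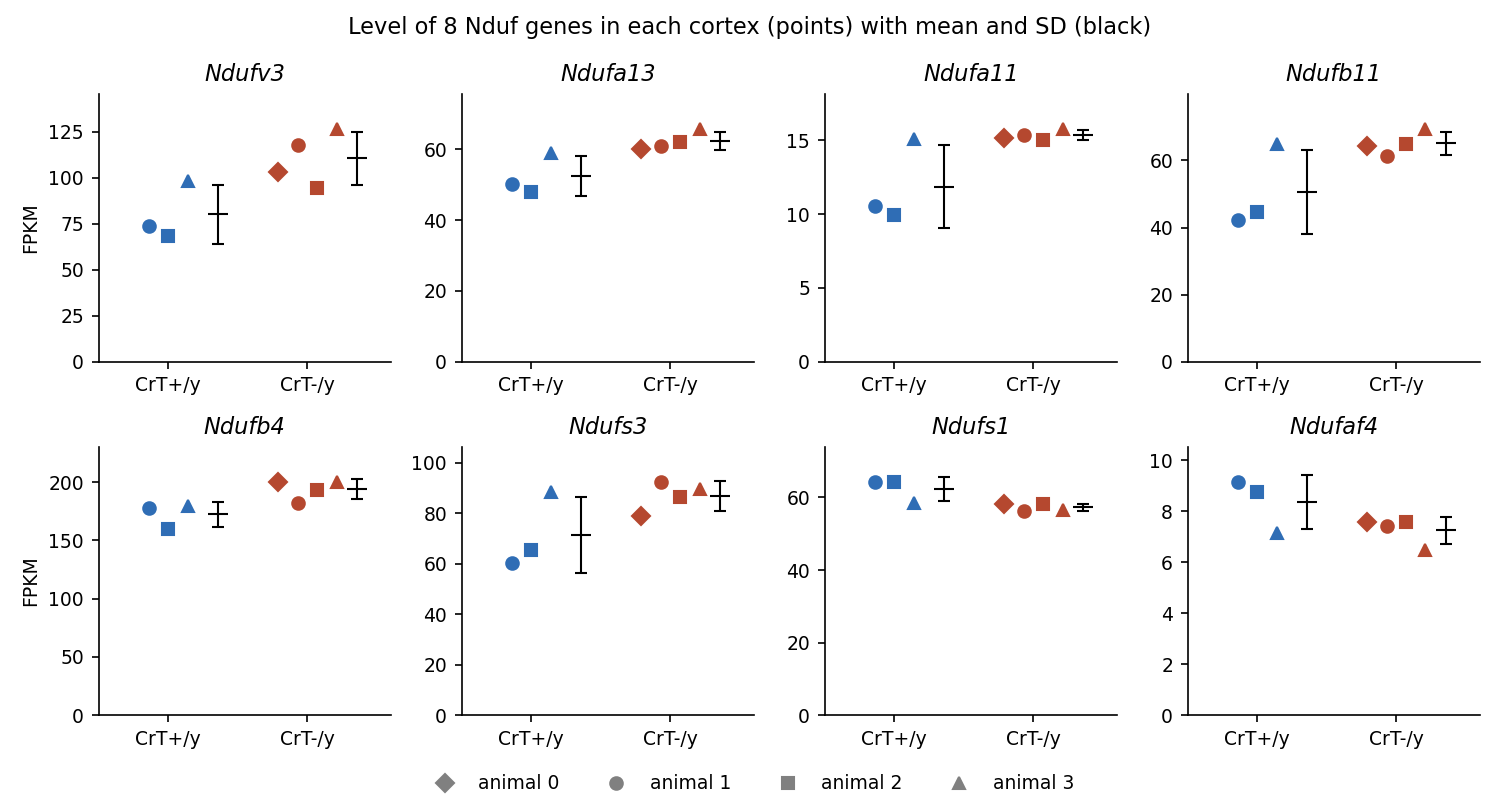
FPKM of 8 Nduf genes in each animal (points; the symbol gives the animal's number) with the mean and SD of each genotype in black; each y axis starts at 0. In *Ndufa11*, *Ndufb11* and *Ndufs3* CrT+/y replicate 3 lies with the CrT-/y animals and the other CrT+/y animals lie lower, in *Ndufa13* and *Ndufb4* every CrT-/y animal is above every CrT+/y animal, and in *Ndufs1* every one is below.

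The 7 nuclear core subunits, which carry the flavin, the iron-sulfur clusters and the ubiquinone site, had mixed signs. None was called with limma, and 1 (*Ndufs3*) was higher and 1 (*Ndufs1*) lower at an unadjusted p under 0.05. The log2 fold change was positive in 5 and negative in 2, with a median of 0.047. This median was -0.043 after the length correction given further on, -0.018 when CrT+/y replicate 2 was left out and 0.15 when CrT+/y replicate 3 was. In the N module, *Ndufv1* binds FMN and NADH and *Ndufv2* holds an iron-sulfur cluster. *Ndufv1* had a mean of 80.2 ± 2.84 FPKM (SD, n = 4) in CrT-/y cortex against 76.9 ± 6.24 FPKM (SD, n = 3) in CrT+/y cortex (0.062), and *Ndufv2* at 56.8 ± 1.92 against 54.0 ± 5.60 FPKM (0.077). Both differences were within the spread of the CrT+/y animals. *Ndufs1*, the largest N module subunit, went the other way. It was at 58.1, 56.2, 58.2 and 56.6 FPKM in CrT-/y against 64.3, 64.3 and 58.6 FPKM in CrT+/y cortex, and all CrT-/y animals were the lower ones, although CrT+/y replicate 3 was close to CrT-/y replicates 0 and 2. Its log2 fold change was -0.12 with a standard error of 0.053 (limma adjusted p = 0.19).

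In the Q module, *Ndufs3* was the core subunit with the largest difference. It was at 78.9, 92.5, 86.3 and 89.8 FPKM in CrT-/y against 60.5, 65.3 and 88.4 FPKM in CrT+/y cortex (0.30, limma adjusted p = 0.17), so again only CrT+/y replicates 1 and 2 were low. *Ndufs7*, a subunit at the ubiquinone site, and *Ndufs8*, an iron-sulfur subunit, had means that lay closer together. *Ndufs7* was at 108.1 ± 2.39 FPKM (SD, n = 4) against 105.6 ± 18.7 FPKM (SD, n = 3) and *Ndufs8* at 74.0 ± 2.52 against 74.1 ± 13.0 FPKM. The 95% confidence intervals of their log2 fold changes were -0.18 to 0.27 and -0.21 to 0.24.

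Accessory subunits, which stabilize and surround the catalytic core, were mostly on the positive side. Of the 29, 25 had a positive log2 fold change, and the median was 0.13. It was 0.17 to 0.19 under the other scalings, with 25 or 26 positive, and 0.023 with 15 positive after the length correction. In the distal membrane arm all 10 were positive (median 0.13), in the matrix arm 7 of 9 (0.12) and in the proximal membrane arm 7 of 9 (0.15). After the length correction these medians were 0.031, -0.011 and -0.0014, and 4 of the 10 distal arm genes (*Ndufb2*, *Ndufb5*, *Ndufb7* and *Ndufb10*) were negative. *Ndufab1*, the mitochondrial acyl carrier protein that sits in both arms, had a log2 fold change of 0.22 (limma adjusted p = 0.33). In the distal arm, *Ndufb4* was at 200.4, 182.4, 193.7 and 199.8 FPKM in CrT-/y against 177.9, 160.0 and 179.3 FPKM in CrT+/y cortex. The groups did not overlap, but the change of 0.17 (standard error 0.063) had an adjusted p of 0.14 with limma. *Ndufb3* of the same arm was at 155.7 ± 10.3 FPKM (SD, n = 4) against 144.6 ± 19.6 FPKM (SD, n = 3), a difference within its spread. The accessory subunits with negative log2 fold changes were *Ndufs5* (-0.13), *Ndufs6* (-0.11), *Ndufa9* (-0.11) and *Ndufa10* (-0.073), none of them called in the main fit. *Ndufs5*, the most abundant subunit transcript, was at 183.7 ± 8.77 against 201.0 ± 14.1 FPKM (limma adjusted p = 0.25).

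In the main fit the assembly factors were mostly on the negative side and the 36 subunits mostly on the positive side. The median of the subunits was 0.11, and 0.011 after the length correction. Of the 7 factors, 6 had a negative log2 fold change, and their median was -0.10. Negative signs were also the more common ones elsewhere, with 41.8% positive over all genes tested and 40.2% among those of 1000 bp or more. The median of the factors was -0.069 after quantile normalization, -0.067 after median centring, -0.042 after upper quartile scaling and -0.093 after the length correction, and *Ndufaf5* turned positive in the first 3 of these. Without CrT+/y replicate 3 the median was -0.045, with 2 of the 7 positive. In the main fit none was called with limma, and 0 passed an unadjusted p under 0.05. *Ndufaf4*, which with *Ndufaf3* helps to build the Q module, was at 7.56, 7.40, 7.58 and 6.46 FPKM in CrT-/y against 9.16, 8.75 and 7.15 FPKM in CrT+/y cortex (-0.20, limma adjusted p = 0.25), and CrT+/y replicate 3 lay among the CrT-/y animals. *Ndufaf3* was the positive one, at 18.8, 20.1, 20.6 and 20.5 FPKM against 17.4, 16.2 and 20.7 FPKM (0.15, limma adjusted p = 0.29). These partners therefore differed in sign, although neither passed the test. *Ndufaf6*, an early Q module factor, was at 4.28, 4.92, 4.77 and 5.89 FPKM against 5.97, 5.44 and 5.46 FPKM. *Ndufaf2*, a paralog of the subunit *Ndufa12* that leaves before the N module is complete, was at 23.5 ± 0.579 against 26.2 ± 3.59 FPKM. The log2 fold changes were -0.19 and -0.14. *Ndufaf7*, a protein arginine methyltransferase, was at 13.1 ± 0.741 against 14.1 ± 0.523 FPKM (-0.10). *Ndufaf1*, a member of the membrane arm assembly complex, was at 12.5 ± 1.27 against 13.2 ± 1.16 FPKM (-0.081), and *Ndufaf5*, a hydroxylase acting on *Ndufs7* protein, at 9.02 ± 0.804 against 9.24 ± 1.87 FPKM (-0.019). A gene listed under an older symbol, *1810043H04Rik* (now *Ndufaf8*), was outside the rule and was at 25.6 FPKM in CrT-/y against 20.1 FPKM in CrT+/y animals (0.39, limma adjusted p = 0.27).

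Assembly factors without the Nduf name were compared as a list. Of 12 listed, 11 were tested, 5 with positive and 6 with negative log2 fold changes and a median of -0.061. One of them was called higher (2.90% of all genes were), *Nubpl*, which delivers iron-sulfur clusters to complex I. It was at 3.67, 4.24, 4.36 and 4.49 FPKM in CrT-/y against 2.52, 3.04 and 3.46 FPKM in CrT+/y cortex, without overlap (0.47, limma adjusted p = 0.066). Of complex II, another entry to the ubiquinone pool, 8 genes for subunits and assembly factors were tested and 5 were positive. The one call among them, where 7.25% of all genes were called lower, was *Sdha*, the flavoprotein subunit, which fell by 0.23 on the log2 scale (limma adjusted p = 0.082). The mitochondrially encoded subunits and *Ndufb1* were not analysed here.

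*Ndufa4* was at 449.8, 467.6, 462.6 and 490.4 FPKM in CrT-/y against 383.3, 355.2 and 485.1 FPKM in CrT+/y cortex (0.21, limma adjusted p = 0.23), the same form as many complex I subunits. *Ndufa4l2* was at 3.97 ± 0.734 FPKM (SD, n = 4) against 4.33 ± 0.540 FPKM (SD, n = 3) (-0.13, limma adjusted p = 0.60).

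**Figure D3:**
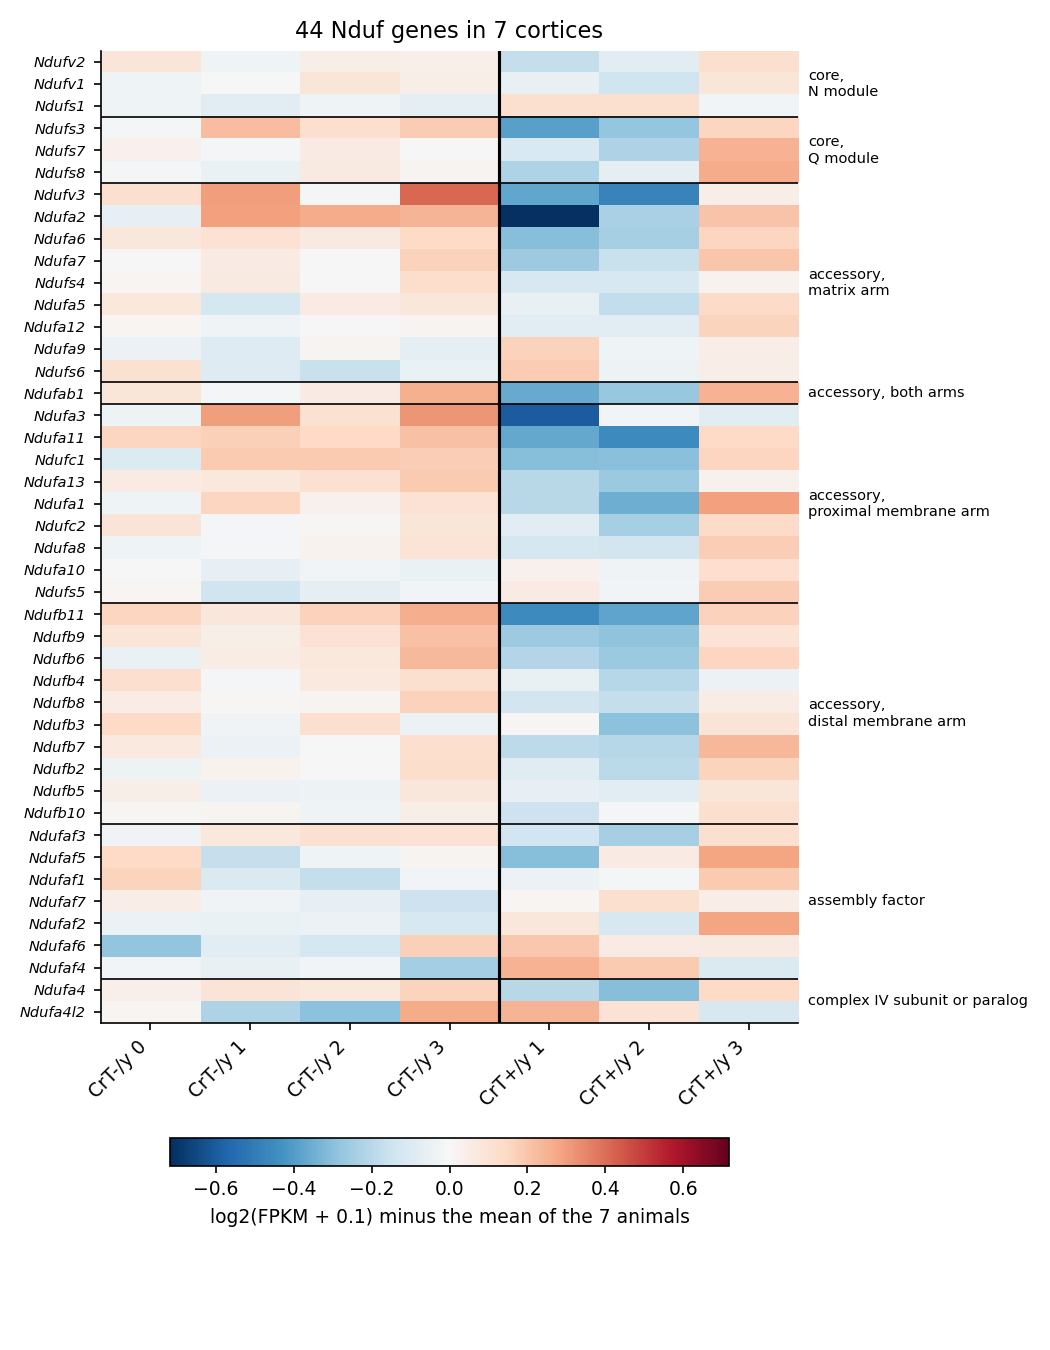
Log2(FPKM + 0.1) of 44 of the 45 Nduf genes in each animal, as the difference from the mean of the 7 animals (colour; red is higher, blue is lower); horizontal lines separate the roles and the vertical line the genotypes. CrT+/y replicates 1 and 2 are blue in most subunit rows, while CrT+/y replicate 3 is red in most rows; over all 45 genes it is the highest animal in 21.

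CrT+/y replicate 3 differed from the other CrT+/y animals in the Nduf genes. It was the highest of the 7 animals in 21 of the 45 genes and the lowest in 0, and it was the highest in 17.5% of all genes tested and in 29.1% of those under 1000 bp. CrT+/y replicates 1 and 2 were the lowest in 14 and 19 Nduf genes, and one or the other was the lowest in 33.5% of all genes and 61.1% of those under 1000 bp. The median deviation of the 45 genes from their mean over the animals was 0.016, -0.011, 0.018 and 0.10 on the log2 scale in the CrT-/y animals and -0.13, -0.16 and 0.14 in the CrT+/y animals. The summed FPKM of the 36 subunits was 3582, 3566, 3588 and 3760 in CrT-/y and 3161, 3122 and 3786 in CrT+/y animals. The CrT-/y animals were thus close to each other, and the CrT+/y animals enclosed them. The median SD of a Nduf gene on the log2 scale was 0.070 in CrT-/y and 0.18 in CrT+/y animals, against 0.083 and 0.13 over all genes tested. It was 0.12 and 0.23 over the genes under 1000 bp, and 0.055 and 0.12 over those averaging at least 50 FPKM. CrT+/y replicates 1 and 2 were both below every CrT-/y animal in 28 of the 45 genes, against 16.4% of all genes and 38.5% of those under 1000 bp. By contrast, CrT+/y replicate 3 was above all CrT-/y animals in 23, among them in 19 and below them in 3. It was above all CrT-/y animals in 34.7% of all genes tested and in 51.0% of those averaging at least 50 FPKM, so this count is close to that of other abundant genes.

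When CrT+/y replicate 3 was left out, 25 Nduf genes were called higher and 2 (*Ndufs1* and *Ndufaf4*) lower with limma. In that fit 10.3% of 12997 genes were called higher and 18.4% lower, and the median log2 fold change of the Nduf genes was 0.17. The genes called higher were 3 core subunits (*Ndufs3*, *Ndufs7* and *Ndufv2*), 20 accessory subunits, *Ndufaf3* and *Ndufa4*. The log2 fold change of *Ndufv3* was then 0.63 (limma adjusted p = 0.011), that of *Ndufb11* 0.58 (adjusted p = 0.0034) and that of *Ndufs3* 0.46 (adjusted p = 0.0074). When any one of the other 6 animals was left out, no Nduf gene was called in either direction with limma at the adjusted threshold. Calls over all genes also fell in these fits. They were 11 to 244 higher and 53 to 509 lower of 12970 to 12986 genes tested, against 377 and 941 with all animals. At an unadjusted p under 0.05, 3 to 9 Nduf genes were higher and 0 to 3 lower, where 5.78% to 7.22% of all genes were higher and 11.8% to 14.9% lower. The labels give no reason to leave out this animal, so both sets of values are given.

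**Figure D4:**
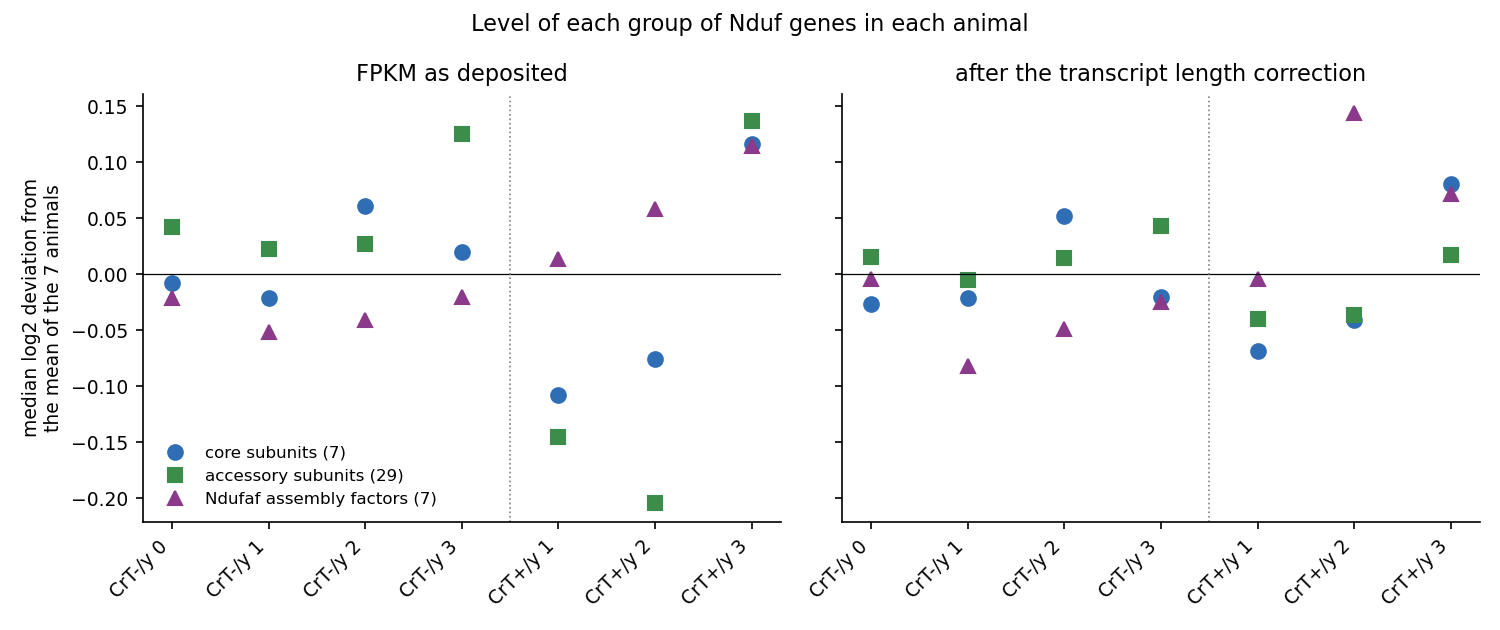
Median deviation of the core subunits, accessory subunits and assembly factors from their mean over the 7 animals (y axis, log2 scale) in each animal (x axis), for FPKM as deposited (left) and with the trend on transcript length removed from each animal (right). On the left the accessory subunits lie at -0.15 and -0.20 in CrT+/y replicates 1 and 2 and at 0.14 in replicate 3; on the right the accessory subunits lie between -0.040 and 0.043, the core subunits between -0.068 and 0.081 and the assembly factors between -0.082 and 0.14.

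Nduf transcripts are short, and in these libraries expression differences varied with transcript length. Their median length was 908 bp, against 3033 bp over all genes tested, and 26 of the 45 were under 1000 bp. Of these 26, 22 had a positive log2 fold change (median 0.12), while the 19 longer ones had 10 positive (median 0.0030). Over the 818 tested genes under 1000 bp, 65.6% were positive and the median was 0.088. CrT+/y replicate 3 exceeded the mean of the other CrT+/y animals by a median of 0.34 (log2) in the short Nduf genes and 0.24 in all short genes, whereas over all genes tested the median was -0.016. CrT+/y replicates 1 and 2 were both below every CrT-/y animal in 38.5% of all short genes. Across the 45 genes, which share the 7 libraries, Spearman's rho between log2 fold change and length was -0.33.

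**Figure D5:**
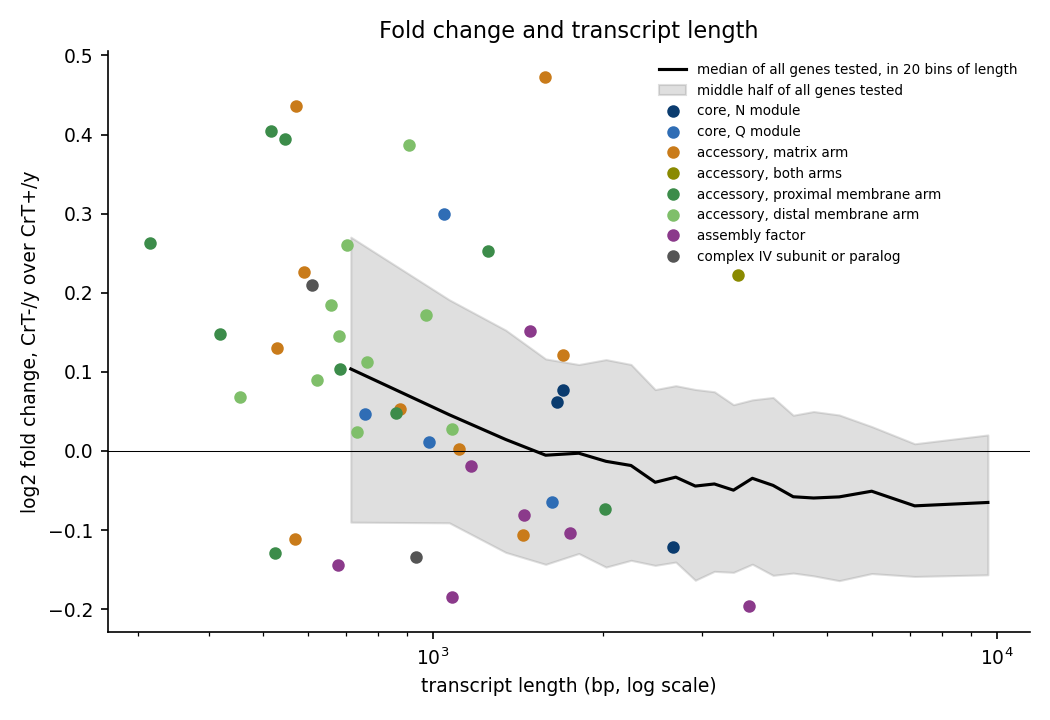
Log2 fold change (y axis, CrT-/y over CrT+/y) against transcript length (x axis, log scale) for the 45 Nduf genes (points, coloured by role); the line is the median and the band the interquartile range of all genes tested in 20 bins of length. The line falls from 0.10 in the shortest bin to -0.065 in the longest, and 26 of the 45 Nduf genes lie left of 1000 bp.

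After each animal was corrected for the trend of expression with length, the median of the Nduf genes was -0.016, with 20 positive and 25 negative. With limma, 4 were then called higher (*Ndufa11*, *Ndufa13*, *Ndufb11* and *Ndufv3*), where 4.42% of all genes were called higher, and 2 lower (*Ndufaf2* and *Ndufs5*), where 5.09% were. *Ndufv3* kept its size, with a log2 fold change of 0.48, and *Ndufa13* was at 0.23. *Ndufa11* and *Ndufb11* had smaller changes than before, 0.26 and 0.32, but passed the threshold (limma adjusted p of 0.078 and 0.097). *Ndufaf2* was at -0.25 and *Ndufs5* at -0.27 (limma adjusted p of 0.058 and 0.054). The sign shared by most accessory subunits was therefore not kept under this correction, whereas the calls of *Ndufv3* and *Ndufa13* were. What made expression vary with length among these animals was not tested.

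Depth and marker genes were set beside the Nduf levels. The relative depths of CrT+/y replicates 1 to 3 were 0.855, 0.908 and 1.06, and CrT-/y replicate 1 was at 0.891. The summed level of 6 striatal marker genes was 75.2, 283.9 and 143.7 FPKM in CrT+/y replicates 1 to 3 and 132.1 to 327.4 FPKM in CrT-/y cortex. The summed level of 6 choroid plexus and ependymal markers was 8.50, 401.4 and 23.4 FPKM in the CrT+/y replicates and 7.32 to 54.3 FPKM in CrT-/y cortex. The 4 erythroid markers found summed to 37.2, 43.5 and 72.5 FPKM against 21.1 to 56.3 FPKM, with CrT+/y replicate 3 the highest. Of the cortical markers, 2 of 8 for excitatory neurons and 2 of 4 for endothelium were called lower in CrT-/y animals, where 7.25% of all genes were. For inhibitory neurons 1 of 6 was called higher, where 2.90% of all genes were, and 0 were called for astrocytes, oligodendrocytes and microglia. The summed level of the 4 olfactory bulb markers was higher in every CrT-/y animal, at 5.95 to 16.3 FPKM against 2.91 to 5.24 FPKM. Of these 4, 2 were tested and 1 was called higher. No marker of these lists was at 0 in all animals, and the part of other tissue or of cell types in the Nduf values was not tested.

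The Nduf genes were spread over 16 chromosomes, with 2 on X. A protein-coding gene on the opposite strand started within 1000 bp upstream of 12 of the 45 (26.7%), against 9.60% of 12509 tested protein-coding genes. The starts of *Ndufv3* and *Wdr4* were 135 bp apart, and *Wdr4* had a log2 fold change of -0.068 (limma adjusted p = 0.65). Of the 10 neighbours tested, 4 had a positive log2 fold change and the median was -0.047. Of these 10, 2 were called, where 2.90% of all genes were called higher and 7.25% lower. They were *Ercc8* beside *Ndufaf2* (0.28, limma adjusted p = 0.087) and *Tatdn1* beside *Ndufb9* (0.46, limma adjusted p = 0.090), both higher in CrT-/y animals. *Ercc8* and *Ndufaf2*, whose starts were 108 bp apart, thus had log2 fold changes of opposite sign.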

How the data were processed

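Cortical RNA-seq of 4 CrT-/y and 3 CrT+/y mice was analysed, grouped by the labels. The authors aligned paired-end reads to mm10 (Bowtie and Cuffnorm, per the submitters' processing notes), kept uniquely aligned exonic reads with at most 2 mismatches, and deposited FPKM per gene and animal. FPKM are not counts, so no count model was used, and precision is limited by the number of animals. Here log2(FPKM + 0.1) was fitted with limma 3.58.1 (R 4.3.3) on genotype, with a variance trend, for genes averaging at least 1 FPKM; p-values were adjusted over all genes tested. The script was tested on simulated data. Tables and figures used Python 3.11.15, numpy 2.4.6, scipy 1.17.1, pandas 2.3.3 and matplotlib 3.10.9.

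The members, gene lists and tests were chosen with earlier results of these data known. Genes named were the called members, the 8 with the largest change, the 6 of highest level, the core subunits and all Ndufaf factors; 1 gene under this rule is not reported here, and other members were named after their values were seen. Positions and transcript lengths are from GENCODE M21 (GRCm38), with 23318 symbols matched directly, 666 as synonyms and 362 not at all; the lengths used by the authors may differ. The length correction subtracted, in each animal, a lowess curve (span 0.3) of the log2 deviation on length. Relative depth came from 2681 weakly expressed genes. The labels number the animals alike in both genotypes. The deviations of same-numbered animals correlated at -0.078, 0.046 and -0.051, and those of other pairs at -0.20 to 0.25. The numbers were therefore not taken as pairs. The authors took both genotypes from the same litters, but the labels name no litter, so litter was not modelled. The alternatives were other pseudocounts, filters and scalings, the length correction, no trend, array weights, a replicate block and leaving out each animal.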

Additional observations from a re-analysis of the deposited data

Results flagged for a closer look

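In 4 of 30 sets of CrT-/y values examined, 1 animal lay far from the other 3 by Dixon's criterion (the gap to the nearest animal over the whole range), which chance gives in about 1 in 20. *Ndufa2* was at 57.5 FPKM in CrT-/y replicate 0 and at 70.9 to 73.2 FPKM in the others. *Ndufc1* was at 82.4 FPKM in the same animal, with the others at 99.7 to 100.6 FPKM. *Ndufaf2* was at 22.7 FPKM in CrT-/y replicate 3 (others 23.7 to 23.9 FPKM) and *Ndufaf4* at 6.46 FPKM in that animal (others 7.40 to 7.58 FPKM). None of these genes was called in the main fit. *Ndufaf2* was called lower with the length correction and *Ndufa2* higher with array weights. Without CrT+/y replicate 3, *Ndufa2* and *Ndufc1* were called higher and *Ndufaf4* lower. Groups of 3, such as the CrT+/y animals, were not examined in this way.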

How the results depend on the processing

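With all animals, 2 Nduf genes were called higher and 0 lower, and with a pseudocount of 1 or 0.01 or median centring these counts were the same. The number called higher was 0 without a filter on low values and without the variance trend, 3 at a mean of at least 5 FPKM, 4 with the length correction, 5 after quantile normalization, 6 after upper quartile scaling and 9 with array weights. Leaving out single animals gave 0 to 25 higher and 0 to 2 lower, with CrT+/y replicate 3 the only one whose removal raised the counts, and the length correction gave 2 lower. The median log2 fold change was 0.012 to 0.17 when single animals were left out, 0.13 after quantile normalization and 0.14 after upper quartile scaling; it reversed to -0.016 with the length correction and to -0.011 with the length correction and the replicate block. The replicate block gave 1 gene called higher (*Ndufv3*) with and without the length correction, and a median of 0.080; CrT-/y replicate 0 has no partner and adds nothing to it. *Ndufv3* was called in 12 and *Ndufa13* in 10 of 20 settings. The split over all genes, 377 higher and 941 lower, was 528 and 555 with quantile normalization, 490 and 527 with median centring, and 741 and 463 with upper quartile scaling, the last of which moved the median of all genes from -0.033 to 0.028. It was 206 and 524 of 19100 genes without the filter, 326 and 1052 of 9498 at a mean of at least 5 FPKM, and 300 and 625 without the variance trend. With the length correction it was 574 and 661, with array weights 602 and 1295, and with the replicate block 166 and 410. The block with the length correction gave 138 and 226. Leaving out single animals gave 11 to 1342 higher and 53 to 2394 lower.

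Among the genes named under the rule above, some small changes reversed, none of them called where the sign was reversed. *Ndufaf5* was at 0.0040 after quantile normalization, 0.042 after upper quartile scaling, 0.018 after median centring and 0.028 with array weights. With the length correction *Ndufs7* was at -0.043 and *Ndufs8* at -0.043, and with the replicate block added they were at -0.048 and -0.033 and *Ndufb3* at -0.011. Members outside that rule reversed as well, and the length correction lowered the number of positive members from 32 to 20 of 45. *Ndufa1* went from 0.15 to -0.024, *Ndufa7* from 0.13 to -0.011 and *Ndufc2* from 0.10 to -0.0014. Leaving out single animals gave ranges of -0.18 to 0.12 for *Ndufaf5*, -0.0017 to 0.19 for *Ndufb3*, -0.051 to 0.19 for *Ndufs7* and -0.094 to 0.15 for *Ndufs8*. The causes were not tested. With 7 animals and FPKM only, small changes of single genes are hard to show.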
